A study of Sus scrofa with 12 samples.

Results

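The miR-132 and miR-212 hairpins were examined through the 6 entries of the miRNA list whose names carry these numbers, with or without the pig prefix, out of 1452 miRNAs listed. Small RNA was sequenced from testes removed by castration. Group Ha held HZ (Hezuo) boars aged 30 days and group Hb those aged 120 days, while La and Lb held LC (Landrace) boars of the same respective ages, and each group had 3 libraries. HZ is an early maturing native Chinese breed, LC is a commercial breed used as the control, and no group received a treatment or carried an engineered allele. The submitters describe the libraries as biological replicates, whereas the methods describe RNA extracted from pooled samples, so the spread between libraries may not be that between single boars.

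The hairpins miR-132 and miR-212 lie side by side in mammalian genomes and are processed from a shared primary transcript. Its promoter responds to the cAMP pathway through the transcription factor CREB. In neurons the pair is induced by activity, and in steroid-producing cells of the adrenal gland, ovary and testis it responds to the pituitary hormones that act through cAMP, such as ACTH and LH. A hairpin can give a mature miRNA from its 5p arm and another from its 3p arm. Targets are chosen mainly by the seed, which is bases 2 to 8 of the mature miRNA.

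In the pig annotation (RefSeq genes of Sscrofa11.1), MIR132 lies on chromosome 12 from 48162625 to 48162702 and MIR212 from 48163054 to 48163135, with 351 bases between them. Neither lies within the bounds of another annotated gene. The nearest protein-coding genes are OVCA2, which ends 851 bases before MIR132, and HIC1, a transcriptional repressor gene that starts 4726 bases after MIR212. The next annotated miRNA gene on this chromosome, MIR423, is 1951021 bases away.

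The 6 mature sequences, as deposited with the counts, are shown because the arms and seeds set which entries can be compared. The seed is in capitals. Entries ending in -x were taken as 5p and those ending in -y as 3p. Among entries of this list that share their leading 18 bases with a pig miRNA whose name states the arm, the -x suffix went with 5p in 51 pairs and with 3p in 1, and the -y suffix went with 3p in all 38.
miR-132-x (miR-132-5p): aCCGTGGCtttcgattgttact
ssc-miR-132 (miR-132-3p): tAACAGTCtacagccatggtcg
miR-132-y (miR-132-3p, longer by 2 bases): tAACAGTCtacagccatggtcgtt
ssc-miR-212 (miR-212-5p): aCCTTGGCtctagactgcttact
miR-212-x (miR-212-5p, longer by 2 bases): aCCTTGGCtctagactgcttactga
miR-212-y (miR-212-3p): tAACAGTCtccagtcacggcc

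The pig names thus cover opposite arms of the hairpins, since ssc-miR-132 is a 3p sequence and ssc-miR-212 a 5p sequence. The 3p arms of both hairpins carry the seed AACAGTC and match at 17 of 21 positions. The 5p arms match at 14 of 22 positions and have different seeds, CCGTGGC in miR-132 and CCTTGGC in miR-212. No entry outside the 6 lies within 3 edits of any of them. The longer entries differ from the pig entries only at the 3′ end, so tags of 1 arm were divided between 2 entries.

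All members were of low to middling abundance. By mean expression over the 12 libraries, in TPM as deposited by the authors (counts scaled by a library total), miR-132-x ranked 346 of 1452 (20.9 TPM), ssc-miR-212 ranked 374 (17.4 TPM), ssc-miR-132 ranked 402 (14.8 TPM) and miR-212-y ranked 544 (4.43 TPM). The longer forms were rare, at 0.554 TPM for miR-132-y and 0.0757 TPM for miR-212-x, which was counted in 3 of the 12 libraries with 9 counts in all. Libraries held between 6520197 and 16874633 counts on listed miRNAs, and the 6 members took 295 to 1416 of them. A count of 3 corresponds to 0.158 to 0.404 TPM, and such limits cover counting error only, since tags amplified by PCR are not independent molecules.

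Differential expression was tested on the counts of all listed miRNAs with edgeR's quasi-likelihood test, and a call required a log2 fold change beyond 1 in either direction together with p under 0.05 without adjustment. Adjusted p-values below are from this test with Benjamini-Hochberg adjustment over all miRNAs tested. A positive log2 fold change means a higher level in the group named last.

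The 5p product of miR-132 (miR-132-x) had the largest log2 fold changes with age among the 4 regular products. Its level was 6.91, 8.02 and 7.50 TPM in the Ha libraries and 49.7, 16.9 and 34.4 TPM in the Hb libraries. In LC boars it was 10.03, 10.5 and 9.75 TPM in La and 35.6, 35.1 and 26.7 TPM in Lb. Every library at 120 days lay above every library at 30 days, and Hb replicate 2 was the lowest of the older libraries. The log2 fold change was 2.20 for Ha vs. Hb (standard error 0.339, adjusted p = 0.000256) and 1.5 for La vs. Lb (standard error 0.185, adjusted p = 3.54e-05). Without Hb replicate 2 the rise in HZ boars was 2.41.

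The product of the other arm, miR-132-3p, is the form to which most described targets of miR-132 belong. Its main entry ssc-miR-132 was at 7.28, 7.10 and 6.95 TPM in Ha and 28.3, 9.27 and 23.7 TPM in Hb. In LC boars the libraries held 7.77, 6.83 and 9.12 TPM in La and 23.0, 26.2 and 22.3 TPM in Lb. The ages did not overlap in either breed, although Hb replicate 2 lay only just above the highest La library. The log2 fold change was 1.55 for Ha vs. Hb (standard error 0.352, adjusted p = 0.00388) and 1.40 for La vs. Lb (standard error 0.206, adjusted p = 0.00015).

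For ssc-miR-212, the 5p product of the neighbouring hairpin, the Ha libraries held 10.9, 12.8 and 12.2 TPM and the Hb libraries 27.6, 16.6 and 23.0 TPM. The La libraries held 9.16, 9.38 and 9.28 TPM and the Lb libraries 28.4, 28.3 and 21.6 TPM. Again no library at 120 days reached down to those at 30 days. The log2 fold change of 1.31 in La vs. Lb (standard error 0.19, adjusted p = 0.000143) was well past the threshold. In Ha vs. Hb it was 1.0 (standard error 0.307, adjusted p = 0.0223), which is at the threshold itself, and the call was lost without Ha replicate 1 (0.96) or Hb replicate 3 (0.98) and when counts were scaled by library totals alone (0.92).

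The least abundant of the 4 regular products was miR-212-y, the 3p arm that shares its seed with miR-132-3p. It was at 2.03, 2.74 and 2.22 TPM in Ha and 9.70, 3.93 and 5.02 TPM in Hb, and at 2.62, 3.41 and 2.58 TPM in La and 6.16, 8.18 and 4.54 TPM in Lb, from 22 to 93 counts per library. The age groups did not overlap. The log2 fold change was 1.46 in Ha vs. Hb (standard error 0.389, adjusted p = 0.0103). In La vs. Lb it was 0.96 (standard error 0.30, adjusted p = 0.0234), just short of the threshold on size, and it passed that threshold without La replicate 2 (1.09), Lb replicate 1 (1.01) or Lb replicate 3 (1.17) and with library totals alone (1.17). Without Lb replicate 2 it was 0.62 (adjusted p = 0.0832), and without La replicate 1 or 3 it was 0.87 and 0.91 (adjusted p = 0.0761 and 0.08).

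**Figure D1:**
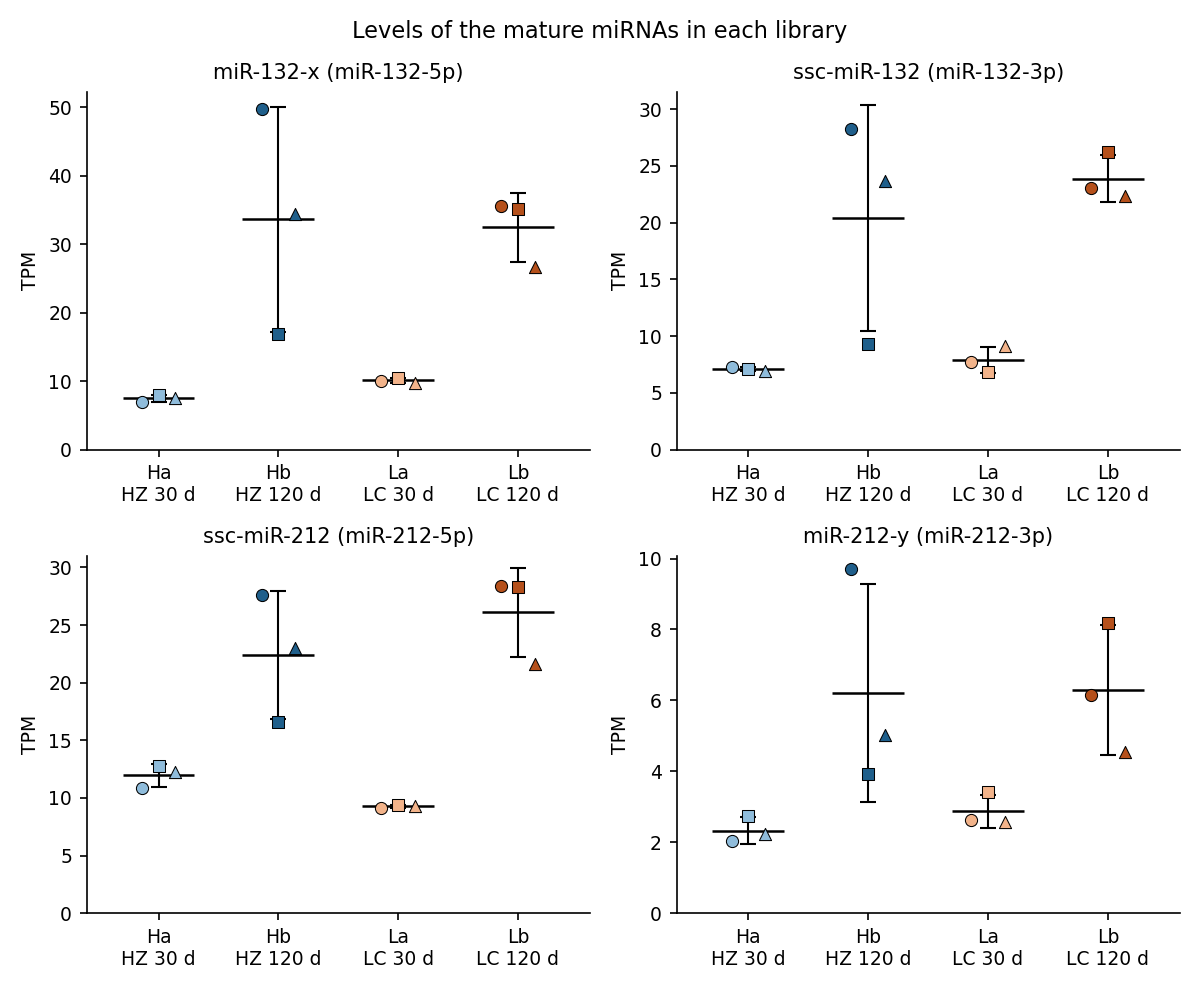
Level in TPM (vertical axis, from 0) of the 4 regular mature products in each library, by group (horizontal axis); circles, squares and triangles are replicates 1, 2 and 3, long bars are means and whiskers the SD of 3 libraries. For each product the 6 libraries at 120 days lie above the 30-day libraries of that breed, and Hb replicate 2 (square) is the lowest of Hb, for example at 16.9 TPM of miR-132-x against 34.4 and 49.7 TPM.

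In all, 5 of the 6 members were called up in Ha vs. Hb, where 25.1% of the 1441 miRNAs tested were called up, and 4 of the 6 with the adjusted p-value, against 20.3%. The latter count was 2 without Ha replicate 1 and with library totals alone. In La vs. Lb, 3 of the 6 were called up, against 26.3% of 1446, and the same number with the adjusted p-value, against 23.2%. No member was called down between the ages, where 14.4% and 5.81% of all miRNAs were. The members are not independent of each other, since they come from a shared transcript and 2 pairs of them are forms of the same arm. The sum of the 6 members was 29.0 ± 1.78 TPM (SD, n = 3) in Ha, 83.6 ± 35.0 TPM in Hb, 30.9 ± 0.486 TPM in La and 89.4 ± 12.2 TPM in Lb. In whole tissue, a change in the number of cells that hold a miRNA and a change in its amount per cell cannot be told apart.

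The longer forms gave little information. Entry miR-132-y had 1, 1 and 3 counts in Ha, 11, 3 and 3 in Hb, 12, 5 and 12 in La and 5, 10 and 5 in Lb. The ratio of its summed counts was 4.40 in Hb over Ha, with an exact 95% counting interval of 1.56 to 15.2 on library totals. Its log2 fold change of 2.12 in Ha vs. Hb (adjusted p = 0.0758) lost its call without any 1 of Ha replicates 1 and 2 and Hb replicate 1. It was the single member called between the breeds. In Ha vs. La its log2 fold change was 2.18 (standard error 0.664, adjusted p = 0.0475). There 3.76% of 1278 miRNAs were called up, and 1.64% with the adjusted p-value. The adjusted p-value of miR-132-y was 0.0568 in edgeR's test with library totals alone and 0.126 in DESeq2's test. Among the alternative fits it stayed under 0.05 only with RLE scaling and without Ha replicate 3. The count ratio of La over Ha was 4.46, with an interval of 1.71 to 14.8. When its tags were added to those of ssc-miR-132, no member was called in Ha vs. La. The other longer form, miR-212-x, had 4 counts in Hb replicate 3, 3 in Lb replicate 1, 2 in La replicate 3 and none elsewhere, so its fitted fold changes are not read as a difference.

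Between the breeds the well-counted members lay close together, and neither comparison gave a call for any of them. At 30 days miR-132-x was higher in each La library than in each Ha library, by 0.52 on the log2 scale (standard error 0.191, adjusted p = 0.0973). At the same age ssc-miR-212 was lower in each La library than in each Ha library, the difference being -0.28 (standard error 0.182, adjusted p = 0.378). For ssc-miR-132 and miR-212-y the Ha and La libraries overlapped, with log2 fold changes of 0.25 (standard error 0.201) and 0.38 (standard error 0.275). At 120 days all 4 overlapped, with log2 fold changes from -0.26 to 0.02 and standard errors from 0.291 to 0.378, and none of the 6 members was among the 16.8% of 1444 miRNAs called in Hb vs. Lb. No member had an unadjusted p-value under 0.05 in edgeR's test there, and DESeq2 called 0 as well. The spread of Hb, in which replicates 1 and 2 differed by 116.8 against 47.0 TPM in the sum of the members, limits what this comparison can show.

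**Figure D2:**
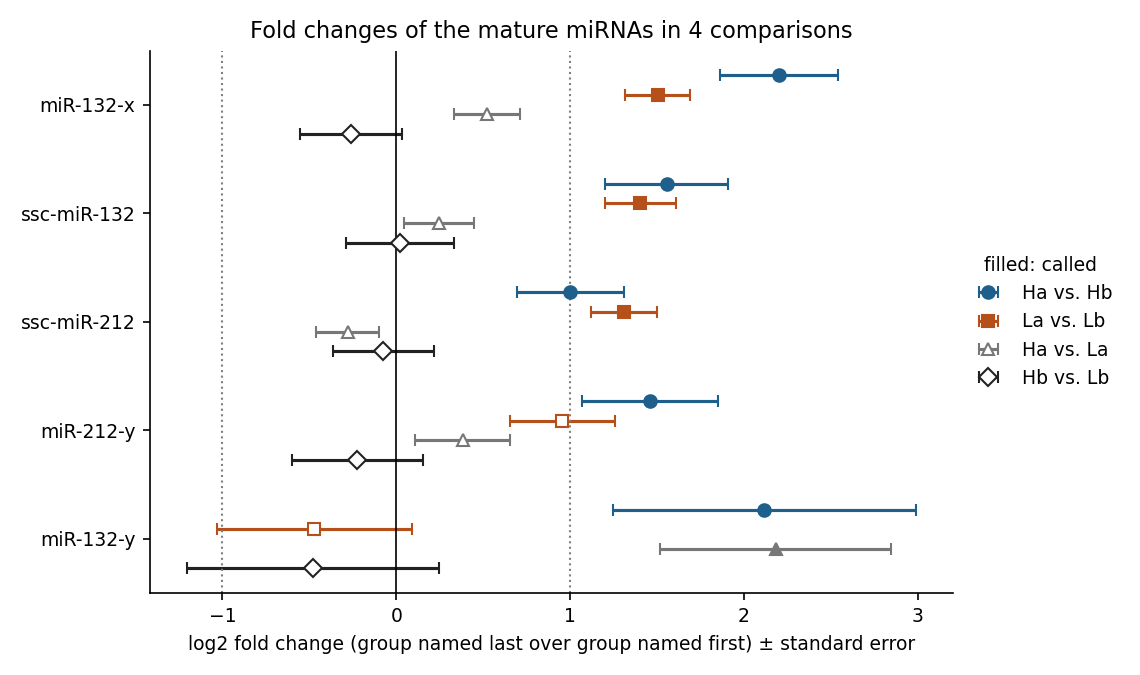
Log2 fold change (horizontal axis) with its standard error from edgeR's quasi-likelihood test for 5 members (vertical axis) in the 4 comparisons; filled symbols are called and dotted lines mark the threshold on size. The age comparisons lie near or above 1 for the 4 regular products, from 0.96 to 2.20, and the breed comparisons lie between -0.28 and 0.52; miR-132-y has wide errors.

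The age effect was compared between the breeds as an interaction over all 12 libraries. For miR-132-x the log2 difference was -0.75, a smaller rise in LC boars (standard error 0.349), which passed at p under 0.05 alone and not after adjustment (adjusted p = 0.227). For miR-132-y it was -2.65 (standard error 0.977, adjusted p = 0.132), the single member called in this test, where 17.1% of 1452 miRNAs were called. For ssc-miR-132, ssc-miR-212 and miR-212-y the differences were -0.20, 0.25 and -0.57, with standard errors of 0.374, 0.309 and 0.462 and adjusted p-values of 0.88, 0.735 and 0.534. A difference between the breeds in the age effect was therefore not detected for the regular products after adjustment.

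Whether the hairpins moved together was asked from the summed entries of each. Summed miR-132 was 14.7 ± 0.466 TPM (SD, n = 3) in Ha, 54.8 ± 26.7 TPM in Hb, 18.7 ± 0.85 TPM in La and 57.0 ± 6.68 TPM in Lb. Summed miR-212 was 14.3 ± 1.32 TPM in Ha, 28.8 ± 8.41 TPM in Hb, 12.2 ± 0.543 TPM in La and 32.5 ± 5.52 TPM in Lb. In both sums all 120-day libraries lay above all 30-day libraries. They were nearly equal in Ha, while miR-132 exceeded miR-212 in every library of the other 3 groups.

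Within the 6 libraries at 120 days the hairpins followed each other, with Pearson's r = 0.93 (exact permutation p = 0.00139) and Spearman's rho = 1 (exact permutation p = 0.00278) on log2 TPM. The values adjusted over the 2 relations computed for the ages were 0.00278 and 0.00556. Without the 2 libraries farthest from the median of miR-132, r was 0.86. Over all 6 libraries the value moved with the scaling. With counts scaled by TMM, r was 0.54 (exact permutation p = 0.275), and 0.81 without the 2 farthest libraries. TMM gave Hb replicate 2 a factor of 0.694 and Hb replicate 1 a factor of 1.195, which moves these libraries toward each other. At 30 days Ha and La lay apart as groups, La with more miR-132 and less miR-212 in every library. Pooled over both breeds, r there was -0.74 (exact permutation p = 0.117) and rho -0.71 (exact permutation p = 0.136), with r = -0.93 without the 2 farthest libraries and -0.32 with TMM scaling. With each group's mean taken off and libraries permuted only within their group, a check added after the data were seen, r was 0.93 at 120 days (exact permutation p = 0.0278, the smallest that 36 arrangements allow, adjusted p = 0.0556). At 30 days it was 0.21 (exact permutation p = 0.639), opposite in sign to the pooled value. With TMM scaling the same check gave 0.52 at 120 days (exact permutation p = 0.0278) and 0.69 at 30 days (exact permutation p = 0.194). Which age had the larger r within groups thus depended on the scaling. Over all 12 libraries r within groups was 0.89 on TPM (exact permutation p = 0.0147) and 0.49 with TMM scaling (exact permutation p = 0.00772).

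**Figure D3:**
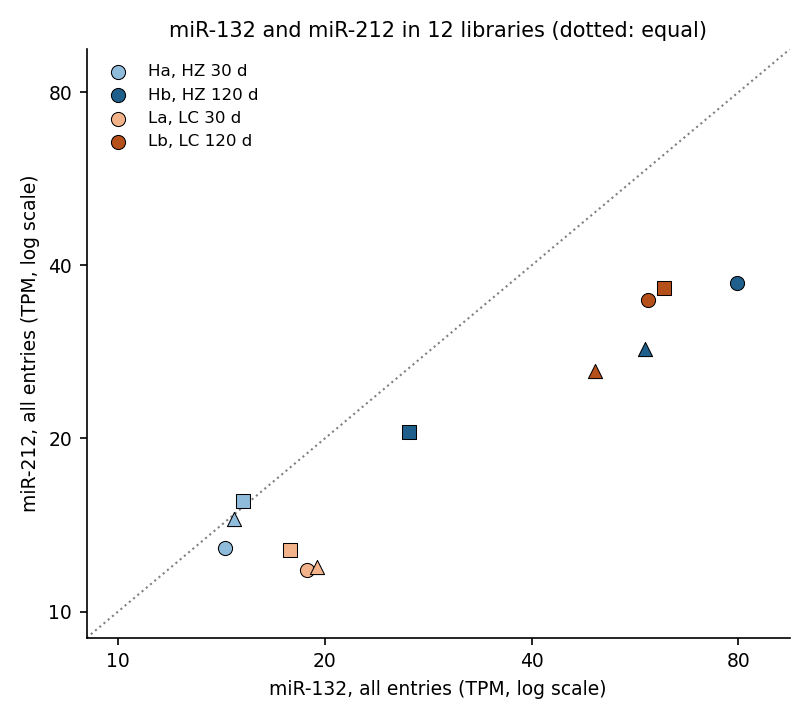
Summed TPM of miR-132 (horizontal axis, log scale) against summed TPM of miR-212 (vertical axis, log scale) in 12 libraries; colours are groups, circles, squares and triangles are replicates 1, 2 and 3, and the dotted line marks equal sums. The Ha libraries lie near the line, and the Hb, La and Lb libraries lie below it, on the side of more miR-132, with Hb and Lb farther up and to the right, reaching 79.5 TPM of miR-132 with 37.3 TPM of miR-212 in Hb replicate 1.

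The proportion of the hairpins changed with age. The log2 ratio of miR-132 to miR-212 counts, in which the library total cancels, was 0.15, -0.03 and 0.03 in Ha, 1.09, 0.37 and 1.03 in Hb, 0.68, 0.48 and 0.70 in La and 0.76, 0.77 and 0.92 in Lb. Within each breed no 120-day library was as low as the highest 30-day library. The mean difference was 0.49 on the log2 scale, a 1.40-fold rise of the ratio (exact permutation test within breed, two-sided p = 0.005, the smallest that its 400 arrangements allow, adjusted p = 0.04 over 8 tests of ratios). The difference was 0.78 in HZ boars and 0.20 in LC boars, and the gap between these values was not tested. The adjusted p rose to 0.14 without any 1 of Ha replicates 1, 2 and 3, and to 0.08 without Lb replicate 3. Between the breeds the mean ratio differed by 0.28 (exact permutation p = 0.09, adjusted p = 0.24), with 0.57 at 30 days, where Ha and La did not overlap, and -0.01 at 120 days, and the mean was 0.16 without Hb replicate 2.

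Within the miR-132 hairpin, the 5p product was higher relative to the 3p product in each Hb library than in each Ha library. The log2 ratio of 5p to 3p counts was -0.09, 0.15 and 0.05 in Ha and 0.74, 0.81 and 0.51 in Hb, without overlap, and 0.19, 0.52 and 0.00 in La and 0.61, 0.37 and 0.23 in Lb, with overlap. The mean age difference of 0.41 did not pass adjustment (exact permutation p = 0.02, adjusted p = 0.08), and it was 0.65 in HZ boars and 0.16 in LC boars. As geometric means of the plain ratio, 5p and 3p were nearly equal in Ha at 1.03, and 5p exceeded 3p in Hb at 1.61, with 1.18 in La and 1.32 in Lb.

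Within the miR-212 hairpin the 5p product was the main one in all 12 libraries. The ratio of 5p to 3p counts had a geometric mean of 5.08 in Ha and 3.80 in Hb, against 3.24 in La and 4.22 in Lb. Its age difference was -0.02 on the log2 scale (exact permutation p = 0.955) and its breed difference -0.25 (exact permutation p = 0.23). The latter was -0.65 at 30 days, where Ha and La did not overlap, and 0.15 at 120 days. The age differences within the breeds had opposite signs, -0.42 in HZ boars and 0.38 in LC boars. The ratio of miR-132-3p to miR-212-3p, which carry the same seed, was 3.10 in Ha and 3.28 in Hb, against 2.98 in La and 3.97 in Lb, with an age difference of 0.25 on the log2 scale (exact permutation p = 0.275) that was 0.11 without Hb replicate 3. Levels of different sequences in 1 library also reflect how readily each is ligated and amplified, so the order of arms is a description, and the tests concern its change between groups.

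**Figure D4:**
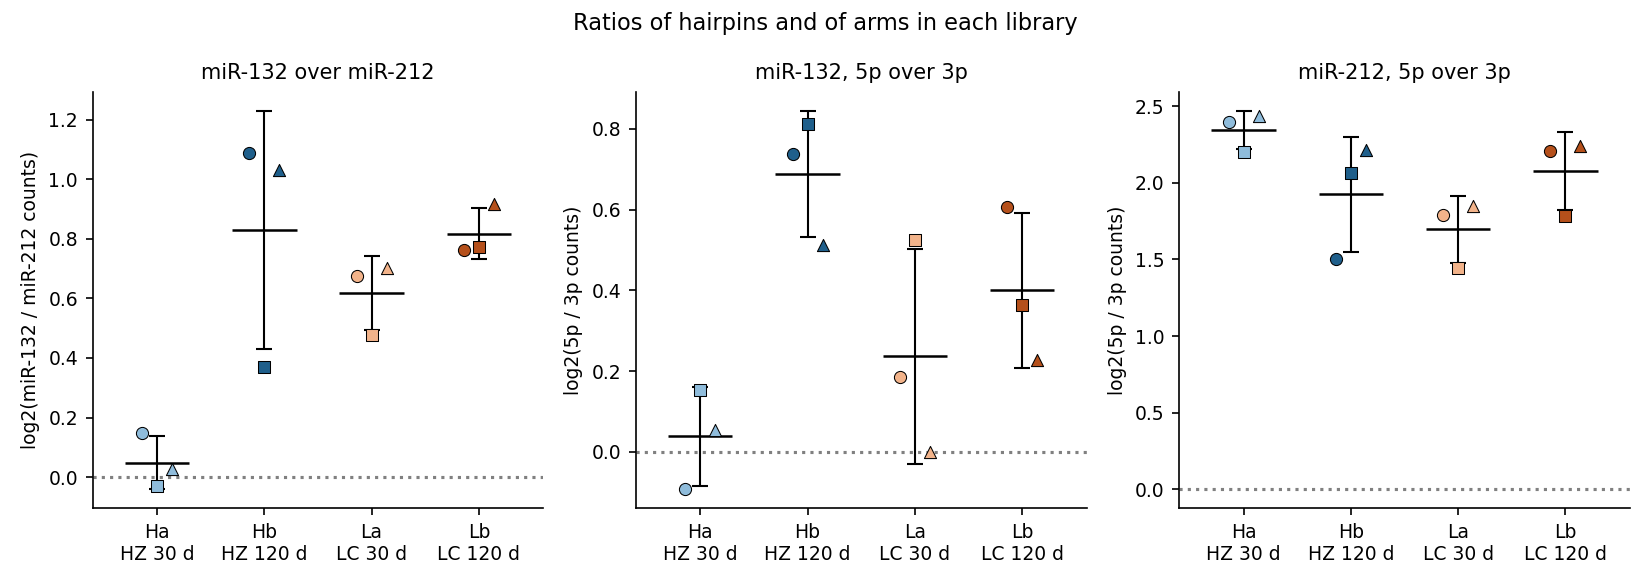
Log2 ratios of counts (vertical axes) in each library by group (horizontal axes), with 0.5 added to each sum: miR-132 over miR-212, and 5p over 3p of each hairpin; circles, squares and triangles are replicates 1, 2 and 3, long bars are means, whiskers the SD of 3 libraries, and dotted lines mark equal counts. The miR-132 share is lowest in Ha, at -0.03 to 0.15, and reaches 0.37 to 1.09 in Hb.

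The order of the products followed these ratios. In every Ha library ssc-miR-212 was the most abundant member, while miR-132-x was the most abundant in every library of the other 3 groups, by a margin as small as 16.9 against 16.6 TPM in Hb replicate 2. The levels of ssc-miR-132 and ssc-miR-212 overlapped in Hb and in Lb, and those of ssc-miR-132 and miR-132-x overlapped in Ha and in Hb. The lowest of the 4 regular products was miR-212-y in all 12 libraries.

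The seed of the 3p arms was not theirs alone, while no other listed miRNA carried that of either 5p arm. Of the 1446 miRNAs outside the members, 1 carries AACAGTC at bases 2 to 8, a miRNA that the authors predicted with miRDeep2. It is shown because it was more abundant than all members together in every library. Its hairpin lies on the minus strand of chromosome X from 118947824 to 118947881 (Sscrofa11.1, as listed).
predicted miRNA of chromosome X (3p): cAACAGTCcctgcctgggtaga

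The predicted miRNA was at 80.9, 84.6 and 61.8 TPM in Ha, 200.4, 146.2 and 270.6 TPM in Hb, 46.2, 39.2 and 41.5 TPM in La and 277.4, 211.95 and 239.8 TPM in Lb. The log2 fold change was 1.56 for Ha vs. Hb (standard error 0.291, adjusted p = 0.00113) and 2.34 for La vs. Lb (standard error 0.129, adjusted p = 1.49e-08). Its age effect differed between the breeds by 0.73 on the log2 scale before adjustment (standard error 0.302, adjusted p = 0.174). In Ha vs. La its log2 fold change was -0.75 (standard error 0.145, adjusted p = 0.00478), below the size that was called. All entries with this seed summed to 85.4 ± 12.5 TPM (SD, n = 3) in Ha, 233 ± 70.2 TPM in Hb, 53.8 ± 3.86 TPM in La and 274 ± 30.3 TPM in Lb. The miR-132 and miR-212 entries made up 11.4% ± 1.62 of this sum in Ha and 11.5% ± 4.30 in Hb, against 21.4% ± 1.54 in La and 11.4% ± 2.56 in Lb.

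**Figure D5:**
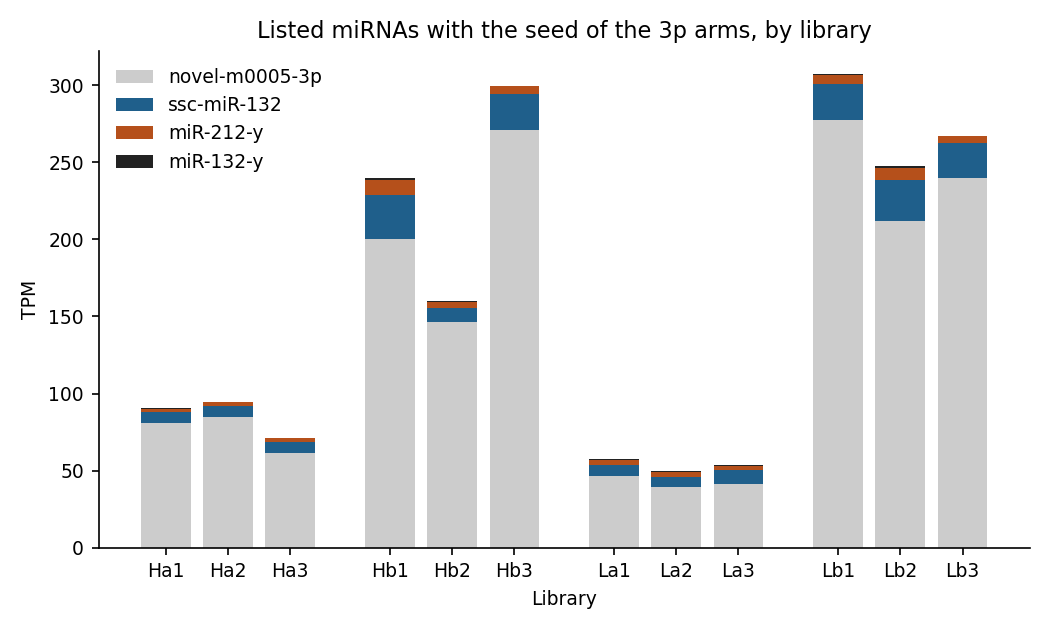
Summed TPM (vertical axis) of the 4 listed entries whose bases 2 to 8 are those of the miR-132 and miR-212 3p arms, in each library (horizontal axis), stacked by entry. The predicted miRNA of chromosome X (grey) takes most of each bar, and the members take 8.46% (Hb replicate 2) to 22.9% (La replicate 3).

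The 5 miRNAs whose profile over the 12 libraries was most like that of each hairpin were looked up among 434 others with a mean of at least 10 TPM, by Pearson's r of log2(TPM + 1). For miR-132 they were miR-203-y (0.98), ssc-miR-182 (0.97) and ssc-miR-9-1, ssc-miR-9-2 and ssc-miR-9 (0.97 each). For miR-212 they were ssc-miR-182 (0.98), ssc-miR-9-2, ssc-miR-9-1 and ssc-miR-9 (0.98 each) and ssc-miR-96-5p (0.97). The hairpins themselves correlated at 0.95. The 3 miR-9 entries hold nearly the same tags and count as 1 miRNA. These values rest on 12 libraries that fall apart by age, so any miRNA with a rise at 120 days can score high. Ranked by Spearman's rho instead, miR-203-y came 4 for miR-132 and the other 4 ranked 34 or lower. For miR-212, ssc-miR-96-5p came 1, ssc-miR-182 came 3 and the miR-9 entries tied at 5. The miRNA most like miR-132 by Pearson's r, miR-203-y, which was not among the 5 for miR-212, was at 147 ± 29.7 TPM (SD, n = 3) in Ha, 524 ± 255 TPM in Hb, 149 ± 7.26 TPM in La and 529 ± 21.3 TPM in Lb, and like the members it was lowest within Hb in replicate 2 (266.6 TPM).

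Other miRNAs described as responding to ACTH, LH or cAMP in steroid-producing cells were counted as a list of 23 entries. In Ha vs. Hb, 5 of the 23 were called up, beside 25.1% of all miRNAs tested, and 7 down, beside 14.4%, and the median log2 fold change was -0.15, beside 0.32 over all miRNAs tested. In La vs. Lb, 8 were called up, beside 26.3% of all, and 4 down, beside 5.81%, with a median of -0.51 beside 0.32. The calls divided by miRNA. Among the 9 entries of miR-182, miR-183 and miR-96, which are processed from a shared cluster and are described as induced, 5 were called up in HZ boars with age (25.1% of all miRNAs) and 8 in LC boars (26.3%), and none down. Among the 14 entries of miR-214, miR-503, miR-27a, miR-125a and miR-455, described as lowered, none was called up, and 7 in HZ boars (14.4% of all) and 4 in LC boars (5.81%) were called down.

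The 4 most abundant of the list were ssc-miR-125a, ssc-miR-27a, ssc-miR-182 and ssc-miR-183. The expression of ssc-miR-125a, described as a repressor of the lipoprotein receptor that supplies cholesterol for steroid synthesis, fell from 21342 ± 2636 TPM (SD, n = 3) in Ha to 9175 ± 4068 TPM in Hb (log2 fold change -1.17, adjusted p = 0.00236). In LC boars it was 20592 ± 650.1 TPM in La and 12101 ± 1423 TPM in Lb, a log2 fold change of -0.94 (adjusted p = 2.12e-05) that was below the size called. The log2 fold changes of ssc-miR-27a were 0.36 for Ha vs. Hb and -0.28 for La vs. Lb, and those of ssc-miR-182 were 0.79 and 0.76, none of them called. For ssc-miR-183 they were 1.78 (adjusted p = 0.000236) and 1.56 (adjusted p = 1.14e-06), both called.

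Another miRNA that is linked with miR-132 and miR-212 on the same chromosome in human, miR-22, had no position in the annotation used here. Its main product ssc-miR-22-3p was at 11990 ± 2235 TPM (SD, n = 3) in Ha, 9190 ± 7895 TPM in Hb, 9302 ± 866 TPM in La and 13667 ± 2835 TPM in Lb. The log2 fold change was -0.43 for Ha vs. Hb (adjusted p = 0.374) and 0.38 for La vs. Lb (adjusted p = 0.0472), and neither it nor the other 2 miR-22 entries was called in any comparison.

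Levels of cell type markers also differed between the ages. The gonadal miRNA miR-202 was abundant in all 12 libraries, at 9608 to 24405 TPM over its 5 entries. The sum of 4 entries of miR-34c and miR-449, which mark meiotic and haploid germ cells, was 23.5 to 76.9 TPM in Ha, 2580 to 13177 TPM in Hb, 16.6 to 24.6 TPM in La and 11279 to 13895 TPM in Lb, and miR-34b was not analysed here. Within Hb it was lowest in replicate 2, as the members were, but highest in replicate 3 (13177 TPM), whereas the members were highest in replicate 1. The 14 entries of the neuronal miRNAs miR-124, miR-9 and miR-128 summed to 796 to 888 TPM in Ha, 734 to 2285 TPM in Hb, 720 to 749 TPM in La and 1412 to 1558 TPM in Lb. Of these, the 6 entries of miR-9 summed to 58.6 to 81.5 TPM at 30 days and 316 to 1235 TPM at 120 days. This sum and the neuronal sum count nearly the same tags more than once, as ssc-miR-9, ssc-miR-9-1 and ssc-miR-9-2, and so run too high. By itself ssc-miR-9 was at 24.3 to 25.7 TPM in Ha and 97.2 to 381 TPM in Hb. In LC boars it was at 18.6 to 21.4 TPM in La and 170 to 246 TPM in Lb. The ages did not overlap in either breed, for the miR-9 sum or for ssc-miR-9. The single entry of miR-124a was at 248 to 257 TPM in Ha, 166 to 357 TPM in Hb, 171 to 216 TPM in La and 312 to 399 TPM in Lb. For miR-128 the ranges were 450.97 to 536 TPM in Ha, 243 to 673.5 TPM in Hb, 454 to 505 TPM in La and 410 to 472 TPM in Lb, with overlap between the ages. Smooth muscle miRNAs (9 entries of miR-143 and miR-145) summed to 20687 to 36347 TPM at 30 days and 55596 to 92500 TPM at 120 days, and striated muscle miRNAs (11 entries of miR-1, miR-133 and miR-206) to 109 to 285 TPM and 453 to 846 TPM. Of the striated muscle miRNAs, miR-1 took most of this sum, at 79.5 to 191 TPM in Ha and 366 to 542 TPM in Hb. The entry of miR-133b was also higher without overlap at 120 days in both breeds, at 2.04 to 5.07 TPM in Ha and 10.2 to 30.6 TPM in Hb. The entries of miR-133a, miR-133 and miR-206 overlapped between the ages in HZ boars and were higher without overlap at 120 days in LC boars. No list had all its entries at 0 in any library. The summed leukocyte and endothelial lists were lower in every library at 120 days within each breed, and the erythroid sum was so in LC boars and overlapped between the ages in HZ boars. Not all members of these lists followed their sum. In LC boars the leukocyte miRNA miR-223 was at 11.3 to 13.4 TPM in La and 15.8 to 23.0 TPM in Lb, and the erythroid miR-486 at 101.5 to 120.0 TPM in La and 132.1 to 200.6 TPM in Lb, both higher at 120 days without overlap. The part of these cell types in the rise of the members was not tested.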

How the data were processed

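Small RNA of 12 boar testis libraries was analysed. Per the paper's methods, the authors filtered reads with fastp (0.18.0), removed tags of other non-coding RNAs and of exons, introns and repeats of the Sus scrofa 11.1 genome, and assigned the rest to miRBase 22.1 with bowtie and miRDeep2. The deposited counts are raw whole-number tag counts per miRNA. The deposited TPM are the authors' counts scaled by a library total, with 0 counts written as 0.01.

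Counts were tested with edgeR 4.0.16 (R 4.3.3) by glmQLFit and glmQLFTest with TMM scaling, in separate fits of 6 libraries over miRNAs with at least 1 count. Standard errors were taken as the log2 fold change over the root of the F statistic. On simulated counts for Ha vs. Hb, 191 of 200 miRNAs changed by 2 on the log2 scale were called in the right direction, and 44 of 1218 unchanged ones were called. For the interaction these were 179 of 200 and 52 of 1252. The changed miRNAs were drawn only from those above a minimum mean count, and smaller changes were not simulated. Recovery of smaller changes, or of changes in rarer miRNAs, is therefore not known. Ratios of counts (0.5 added) were compared by exact permutation within breed or age with Python 3.11.15, where 3 against 3 alone cannot go below p = 0.1. DESeq2 1.42.0 was an alternative. Replicates differed by far more than counting noise (chi-square over its degrees of freedom at least 49.45), so all 12 were kept, and p-values measure the spread between libraries.

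The members, the lists and the tests were chosen with earlier results of these data known. Named were all members, miR-22, entries sharing a member's seed, the 5 profiles most like each hairpin and the 4 most abundant miRNAs of the cAMP list. The members had 295 to 1416 counts per library, and the spread between libraries, wider than counting error, limits precision.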

Additional observations from a re-analysis of the deposited data

Results flagged for a closer look

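The age effect differed between the breeds at an unadjusted p-value under 0.05 for 2 members and for the predicted miRNA that shares their 3p seed. For miR-132-x the interaction was -0.75 on the log2 scale (edgeR's quasi-likelihood test, adjusted p = 0.227), and it ranged from -0.88 to -0.58 when each library was left out in turn. With 1 library left out, that unadjusted p-value was reached only without Ha replicate 2, Hb replicate 2 or Lb replicate 2. The value was -0.58 without Hb replicate 1. That p-value was also not reached with library totals alone (-0.46), the authors' totals (-0.48) or the replicate number as a block (-0.75). It was reached with RLE, DESeq2, filterByExpr and the entries of 1 arm summed. All 3 libraries of each older group lay above the younger libraries of the same breed. For miR-132-y the interaction was -2.65 (adjusted p = 0.132 in the same edgeR test), from 1 to 12 counts per library, and its call was lost without Hb replicate 1 (-1.92). For the predicted miRNA of chromosome X it was 0.73, a larger rise in LC boars (edgeR, adjusted p = 0.174). None of the 3 passed adjustment over 1452 miRNAs.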

How the results depend on the processing

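The rise of miR-132-x and ssc-miR-132 with age was called in both breeds in every fit run. Leaving out each library in turn, 3 to 6 members were called in Ha vs. Hb (3 without Ha replicate 1, 6 without Hb replicate 2), 3 to 4 in La vs. Lb, 1 in each fit of Ha vs. La, 0 in Hb vs. Lb and 0 to 1 for the interaction (0 without Hb replicate 1). With filterByExpr and with the entries of 1 arm summed, 0 members were called in Ha vs. La, and the latter also gave 0 for the interaction, because miR-132-y no longer entered by itself. Scaling by library totals moved the median log2 fold change of all miRNAs by 0.27 in Hb vs. Lb and 0.22 in La vs. Lb. Values near 0 changed sign. In Hb vs. Lb, ssc-miR-132 was -0.0051 with RLE, -0.0081 with DESeq2 and -0.033 with filterByExpr, ssc-miR-212 was 0.23 with library totals and 0.22 with the authors' totals, and miR-212-y was 0.032 and 0.020. The interaction of ssc-miR-132 was 0.091 and 0.072 with these totals. The cause was not tested. With 1 library left out, Hb vs. Lb ranged from -0.14 to 0.18 for ssc-miR-132, -0.14 to 0.028 for ssc-miR-212, -1.08 to 0.19 for miR-132-y and, from 9 counts in all, -3.81 to 2.84 for miR-212-x, which ranged from -2.54 to 3.01 in La vs. Lb and from -6.35 to 0.45 for the interaction. Age differences of ratios ranged from 0.43 to 0.61 for miR-132 over miR-212, 0.11 to 0.35 for their 3p arms, 0.35 to 0.48 for the arms of miR-132 (adjusted p = 0.04 by the exact permutation test without La replicate 2) and -0.089 to 0.089 for those of miR-212, and breed differences from -0.12 to 0.015 for the arms of miR-132 and 0.16 to 0.34 for miR-132 over miR-212. The hairpins correlated at 0.54 at 120 days on counts scaled by TMM. Deviations from group means were an alternative added after the data were seen. On TPM these correlated at 0.93 at 120 days, with an adjusted p = 0.0556 (exact permutation), and, with the sign turned, at 0.21 at 30 days. With TMM scaling the deviations correlated at 0.52 at 120 days and 0.69 at 30 days.

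Same-numbered libraries shared only a number (correlations of their deviations from -0.215 to 0.183). With the replicate number as a block, miR-132-y lost its call in Ha vs. Hb (2.04) and no other call of a member changed. In edgeR's test with this block, the interaction of miR-132-x had an unadjusted p = 0.067. In Ha vs. La, miR-132-y then had an adjusted p = 0.0769 in edgeR's test. The ratio of miR-132 to miR-212 still differed by 0.49, with an adjusted p = 0.25 from exact sign flips of same-numbered pairs, whose smallest p is 0.0312. The depth limits the longer forms most.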
